A study of Mus musculus with 17 samples.

Results

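The genes described here are 33 genes that mark the epithelium of the choroid plexus, and all 33 were found by symbol among the 55471 genes of a count table from mouse hippocampus, of which 39260 had at least 1 count. They were followed across 17 RNA-seq libraries for how closely they moved together, and for how much of each remained where the others were nearly absent. Mice were C57BL/6 (C57BL/6J in the methods), 3 to 6 months old, and of 2 genotypes. CBP-ifKO mice carry floxed Crebbp and a tamoxifen-inducible Cre recombinase under the Camk2a promoter, which acts in forebrain excitatory neurons, and their Control littermates received tamoxifen too and, per the methods of the study, lacked the recombinase, although the sample descriptions name the driver line for Controls as well. Sal mice were given saline and were not kindled. PTZ0 mice received the kindling protocol, repeated injections of 45 mg/kg of the convulsant pentylenetetrazole (PTZ), and were then given saline. PTZ45 mice received the same protocol and were then given 45 mg/kg PTZ. Per the paper, CBP-ifKO mice did not reach the stage of progressive seizures under this protocol. Tissue was collected 45 min after the last injection, and Control PTZ45 gave 2 libraries while the other groups gave 3 each.

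The choroid plexus hangs into the brain ventricles and makes cerebrospinal fluid. Its epithelium secretes transthyretin and growth factors, moves ions and water through apical and basolateral transporters, and seals the blood side from the fluid side with tight junctions. It lies against the fimbria of the hippocampus without being part of it, and the Camk2a driver is aimed at neurons, not at this epithelium. In a bulk library, fewer cells of a type and less RNA per cell cannot be told apart.

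Crebbp, the targeted gene, ranged from 1824 to 2429 normalized counts (counts divided by the DESeq2 size factor of the library) in the 8 Control libraries and from 1061 to 1337 in the 9 CBP-ifKO libraries. Libraries held from 5831992 to 18735643 counts. Lane 3 held Control Sal and Control PTZ0, lane 4 Control PTZ45 and CBP-ifKO Sal, and lane 5 the other CBP-ifKO libraries, so that most genotype differences are also lane differences. None of the 16 pairs of libraries of a group agreed within sampling noise (lowest chi-square, 2.16 per degree of freedom).

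RefSeq start-site windows of 300 bases (build GRCm38.p6) were at hand for 26 of the 33 genes, in 39 windows. They are shown because OTX2 and MSX1 are themselves among the 33 and are homeodomain factors with known core motifs. TAATCC, a core of OTX2 sites, was found on either strand in windows of 4 of the 26 genes (Ace, Igf2, Mfrp and Otx2), or 15.4%, against 8.14% of all 27025 genes with a window. TAATTG, a core of MSX1 sites, was found in 4 of 26 (Cab39l, Kcnj13, Otx2 and Tmem72) against 9.22%, and the forkhead core TGTTTAC in 1 of 26 (Prlr) against 4.05%. These shares are by gene, and a gene with more windows has more places for a match. By window, TAATCC was in 4 of 39 against 7.06% of all 32851 windows. TAATTG was in 5 of 39 against 8%, and TGTTTAC in 1 of 39 against 3.65%. Of the genes with a match, 4 are shown, as far as their 250 bases before the start lie outside annotated exons, each on the strand of its gene and with the match in capitals. The printed matches overlap no other motif searched. The windows of Mfrp (chr9:44101520-44101728, plus strand) and Ace (chr11:105967698-105967944, plus strand) hold TAATCC or its reverse complement GGATTA, which begin 134 and 27 bases before the start. Those of Kcnj13 (chr1:87394730-87394979, minus strand) and Tmem72 (chr6:116716914-116717008, minus strand) hold TAATTG, which begins 98 and 190 bases before the start.
Mfrp: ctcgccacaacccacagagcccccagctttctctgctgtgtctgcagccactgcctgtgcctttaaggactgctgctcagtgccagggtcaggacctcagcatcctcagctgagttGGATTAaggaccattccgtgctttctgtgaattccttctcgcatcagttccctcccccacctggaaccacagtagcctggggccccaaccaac
Ace: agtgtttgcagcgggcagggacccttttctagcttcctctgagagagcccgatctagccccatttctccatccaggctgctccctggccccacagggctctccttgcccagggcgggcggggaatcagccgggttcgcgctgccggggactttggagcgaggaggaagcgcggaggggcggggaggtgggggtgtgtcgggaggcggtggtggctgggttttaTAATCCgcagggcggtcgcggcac
Kcnj13: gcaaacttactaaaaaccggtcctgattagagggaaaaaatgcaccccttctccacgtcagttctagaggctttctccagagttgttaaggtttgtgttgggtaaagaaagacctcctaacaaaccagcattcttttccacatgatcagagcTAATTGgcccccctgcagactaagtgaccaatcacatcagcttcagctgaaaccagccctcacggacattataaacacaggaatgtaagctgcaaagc
Tmem72: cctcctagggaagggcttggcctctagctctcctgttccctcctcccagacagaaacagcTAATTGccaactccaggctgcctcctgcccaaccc
A match of these letters is a description of the sequence and not a binding site. Tmem72 was the gene that moved most steeply with Ttr below. Kcnj13, whose exons partly overlap Gigyf2 on the other strand, and Ace had fitted levels at no Ttr of 44.2% and 48.2% of their mean.

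Ttr encodes transthyretin, the carrier of thyroxine and retinol-binding protein that this epithelium secretes, and it set the scale for the others. In normalized counts it was 179, 9791 and 322 in Control Sal replicates 1 to 3, and 40502, 290.5 and 126 in CBP-ifKO Sal replicates 1 to 3. It was 774, 22268 and 499 in Control PTZ0, 146, 63.0 and 30205 in CBP-ifKO PTZ0, 550 and 418 in Control PTZ45, and 204, 27696 and 147 in CBP-ifKO PTZ45. Thus 5 libraries stood far above the other 12, with no library between 774 and 9791. Each group of 3 held 1 of them, and Control PTZ45, the group of 2, held none. A further count column is named in the manner of the Control PTZ45 columns but fits no labelled sample, and it was not analysed here. Lane 3 held 2 of the 5, lane 4 held 1 and lane 5 held 2. The ratio of the highest to the lowest library was 643 for Ttr.

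**Figure D1:**
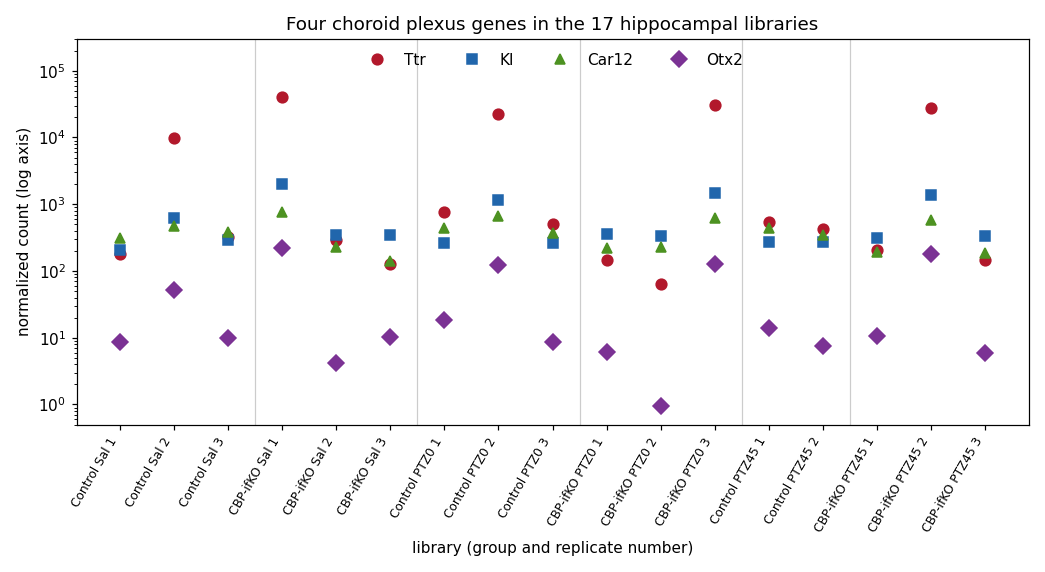
Normalized counts (log axis) of Ttr, Kl, Car12 and Otx2 in each of the 17 libraries, 1 point per gene and library, with groups separated by grey lines. Ttr lies between 9791 and 40502 in 5 libraries and between 63.0 and 774 in the other 12, and the other genes are also highest in those 5.

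The other genes were high in the same libraries. Of the 33 genes, 29 were higher in each of these 5 libraries than in any of the other 12, the exceptions being Igf2, Igfbp2, Slc13a4 and Msx1. The 29 include Ttr, by which the 5 libraries were set apart, and the share of all genes that part this way was not taken. In 32 of 33 the highest value was in CBP-ifKO Sal replicate 1, the library with the most Ttr, and the exception was Wfdc2, which reached 41.0 in CBP-ifKO PTZ0 replicate 3. In 32 of 33 the lowest of the 5 was Control Sal replicate 2, the one with the least Ttr, and the exception was Igf2. For 20 of 33, Ttr included, the 5 libraries came in exactly the order of Ttr. Together the 33 genes took 0.0309% to 0.0459% of all counts in the 12 libraries and 0.189% to 0.694% in the 5.

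The highest-mean genes of the receptors and membrane proteins, of the channels and transporters, and of the transcription factors showed how unequal the contrast was. Kl encodes klotho, a membrane protein that acts as a co-receptor for FGF23. It was 209, 622 and 288 in Control Sal, 1988, 340 and 350 in CBP-ifKO Sal, 262, 1175 and 261 in Control PTZ0, 357, 335 and 1454 in CBP-ifKO PTZ0, 273 and 274 in Control PTZ45, and 314, 1366 and 335 in CBP-ifKO PTZ45. Its 5 high libraries were those of Ttr, but no library fell below 209. Car12 encodes a membrane-bound carbonic anhydrase. It was 313, 474 and 385 in Control Sal, 761, 232 and 141 in CBP-ifKO Sal, 434, 670 and 371 in Control PTZ0, 222, 230 and 626 in CBP-ifKO PTZ0, 439.5 and 351 in Control PTZ45, and 196, 590 and 187.5 in CBP-ifKO PTZ45. The same 5 libraries led, by a much narrower margin, and the others were not alike in the 2 genotypes. Otx2 encodes the homeodomain factor that is required for choroid plexus development. It was 8.57, 51.7 and 9.94 in Control Sal, 220, 4.15 and 10.3 in CBP-ifKO Sal, 18.4, 123 and 8.57 in Control PTZ0, 6.09, 0.955 and 129 in CBP-ifKO PTZ0, 14.2 and 7.61 in Control PTZ45, and 10.5, 177 and 5.89 in CBP-ifKO PTZ45. Its 5 high libraries, from 51.7 upward, were those of Ttr, and in the other 12 it did not exceed 18.4.

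The spread between libraries of a group was accordingly wide. The SD of log2(normalized count + 1) within groups had a median of 1.69 over the 33 genes, against 0.16 over the 18282 genes whose mean reached 10 normalized counts. For 31 of the 33 it was at or above the 99th percentile of those genes. The other 2 were Cab39l, with 0.57 at percentile 97.0, and Slc29a4, with 0.32 at percentile 79.9. Igf2, Krt8 and Wfdc2 had means under 10 themselves (1.81, 4.95 and 9.37), so their percentiles set them beside better counted genes. Control PTZ45, the group with no high library, had a median SD of 0.25, and the groups of 3 had 1.12 (Control Sal) to 2.25 (CBP-ifKO Sal).

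**Figure D2:**
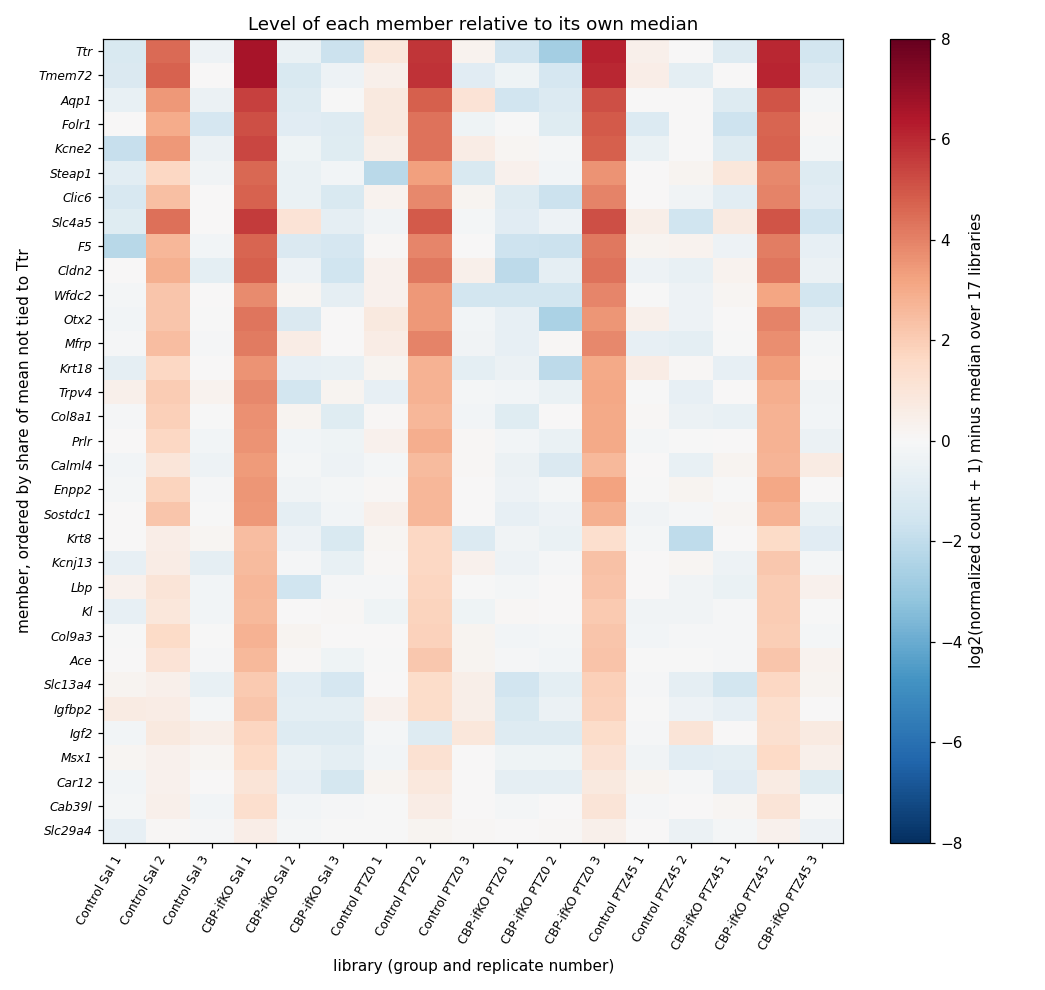
Each row is 1 of the 33 genes and each column 1 of the 17 libraries, and colour gives log2(normalized count + 1) minus the median of the gene over the libraries. The 5 columns of the libraries rich in Ttr are red for nearly every gene, deeply for genes such as Ttr, Tmem72 and Slc4a5 near the top and hardly at the bottom (Slc29a4).

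To give each gene a slope, log2 Ttr was entered in a DESeq2 fit of all 17 libraries beside the 6 groups, so that the slope is the log2 change of a gene per log2 unit of Ttr within groups, and a gene proportional to Ttr has a slope of 1. Of the 32 genes other than Ttr, 31 were called higher with Ttr at an adjusted p under 0.05 (DESeq2 Wald test, Benjamini-Hochberg over 27080 genes), while 463 of all 27080 genes, or 1.71%, were called in that direction. The median slope was 0.44 over the 32 genes and -0.002 over the 18282 genes. Among the 12 libraries low in Ttr alone, the same fit called 0 of 32, beside 5.86% of 7768 genes, but only 4 of the 32 (Kl, Enpp2, Car12 and Cab39l) kept an adjusted p there, and 3 of 32 had an unadjusted p under 0.05, beside 5.09% of the 37874 genes with a p. In that fit 12 of the 32 slopes were below 0, among them those of Aqp1 (-0.62) and Lbp (-0.58). The fit kept the group term, and Aqp1 had only 1.22 to 12.4 normalized counts in these libraries. Over the same 12 libraries without groups, Pearson's r with Ttr was 0.67 for Aqp1 (permutation p = 0.017, adjusted p = 0.29) and -0.14 for Lbp.

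Among secreted products, F5 (coagulation factor V, slope 0.72 ± 0.03 SE) and Wfdc2 (a whey acidic protein of epithelia, 0.72 ± 0.09) were the steepest. Sostdc1, an antagonist of BMP and Wnt signals, had a slope of 0.45 ± 0.03, and Enpp2, or autotaxin, which makes lysophosphatidic acid, one of 0.43 ± 0.02. Lbp, the lipopolysaccharide-binding protein, had 0.30 ± 0.03 and Igfbp2, which binds insulin-like growth factors, 0.26 ± 0.04. Igf2, insulin-like growth factor 2, was the one gene not called, with a slope of 0.33 ± 0.13 (adjusted p = 0.313) and 0 to 5.77 normalized counts. Of its exonic bases, 64.5% are shared with other annotated genes, chiefly Gm49394 on the same strand, which had 0 counts in all libraries, and how such reads were assigned was not stated.

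Receptors and membrane proteins included Folr1, the folate receptor that carries folate into the fluid, with a slope of 0.74 ± 0.06. Steap1, a membrane protein of the STEAP family, had 0.60 ± 0.06. Mfrp, a frizzled-related membrane protein, had a slope of 0.54 ± 0.03, but 37.9% of its exonic bases are shared with other genes, mainly C1qtnf5 on the same strand. Prlr, the prolactin receptor, had 0.43 ± 0.02. Ace, the angiotensin-converting enzyme, had 0.31 ± 0.02 and Kl 0.29 ± 0.02.

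Slopes of the ion and water transport genes ran from 0.07 to 0.81. Slc4a5, a sodium bicarbonate cotransporter, had a slope of 0.81 ± 0.07, the water channel Aqp1 0.79 ± 0.04, the potassium channel subunit Kcne2 0.76 ± 0.06 and Clic6, of the chloride intracellular channel family, 0.68 ± 0.02. The cation channel Trpv4 followed with 0.47 ± 0.04. Flatter slopes belonged to the inward rectifier Kcnj13, with 0.32 ± 0.02, to Slc13a4, a sulfate transporter, with 0.30 ± 0.05, and to Car12, with 0.20 ± 0.02. Slc29a4, a monoamine transporter also known from neurons, had the flattest, 0.07 ± 0.02 (adjusted p = 0.00124, and 0.0864 without CBP-ifKO Sal replicate 1). Of the exonic bases of Kcnj13, 49.1% lie opposite Gigyf2 on the other strand, and the strand setting of the counting was not stated.

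Of the junction, keratin and matrix genes, Cldn2, the claudin of leaky epithelia, had a slope of 0.70 ± 0.04. The keratins Krt18 and Krt8, which pair in simple epithelia, had 0.55 ± 0.04 and 0.35 ± 0.08, and Krt8 was not called without CBP-ifKO Sal replicate 1 (adjusted p = 0.201). The collagens Col8a1 and Col9a3 had 0.46 ± 0.03 and 0.31 ± 0.01. The homeodomain factors parted, with 0.59 ± 0.03 for Otx2 and 0.22 ± 0.03 for Msx1. Among the remaining genes, Tmem72, a membrane protein of little known function, was the steepest of all with 0.98 ± 0.06, Calml4, a calmodulin-like protein, had 0.40 ± 0.03, and Cab39l, a partner of the kinase LKB1, 0.14 ± 0.01.

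On the linear scale some of the steep genes kept a nearly fixed proportion to Ttr in the 5 high libraries. Per 1000 normalized counts of Ttr, Aqp1 had 6.92 in Control Sal replicate 2, 7.01 in CBP-ifKO Sal replicate 1, 7.57 in Control PTZ0 replicate 2, 7.52 in CBP-ifKO PTZ0 replicate 3 and 7.43 in CBP-ifKO PTZ45 replicate 2. F5 ranged from 20.8 to 23.5 per 1000 Ttr in these 5 libraries, Folr1 from 7.67 to 9.32 and Tmem72 from 15.7 to 19.4. The highest of the 5 exceeded the lowest by a ratio of 1.09 for Aqp1 and 1.13 for F5, over libraries in which Ttr itself went from 9791 to 40502. Other steep genes varied more, with a ratio of 1.81 for Slc4a5 (7.58 to 13.7 per 1000 Ttr), 1.92 for Steap1 and 1.58 for Wfdc2. Slc29a4 went the other way, from 15.8 per 1000 Ttr in Control Sal replicate 2 down to 5.19 in CBP-ifKO Sal replicate 1, a ratio of 3.05, and Car12 had a ratio of 2.58. Otx2 lay between, from 4.28 to 6.39. Per kilobase of exon in CBP-ifKO Sal replicate 1, Ttr stood at 34150 normalized counts, Enpp2 at 5007, Igfbp2 at 389, Clic6 at 248 and Kl at 213, so that transthyretin led the set by a wide margin per length.

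A straight line of each gene on Ttr over the 17 libraries split its mean into a portion proportional to Ttr and a base, the level at no Ttr. The base is given as a percent of the mean with the SE of the fit. It was under 10% in 9 of 32 genes, from 10% to 25% in 5, from 25% to 50% in 11 and at least 50% in 7. These values describe a line fitted to libraries of which 5 hold most of the range in Ttr.

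**Figure D3:**
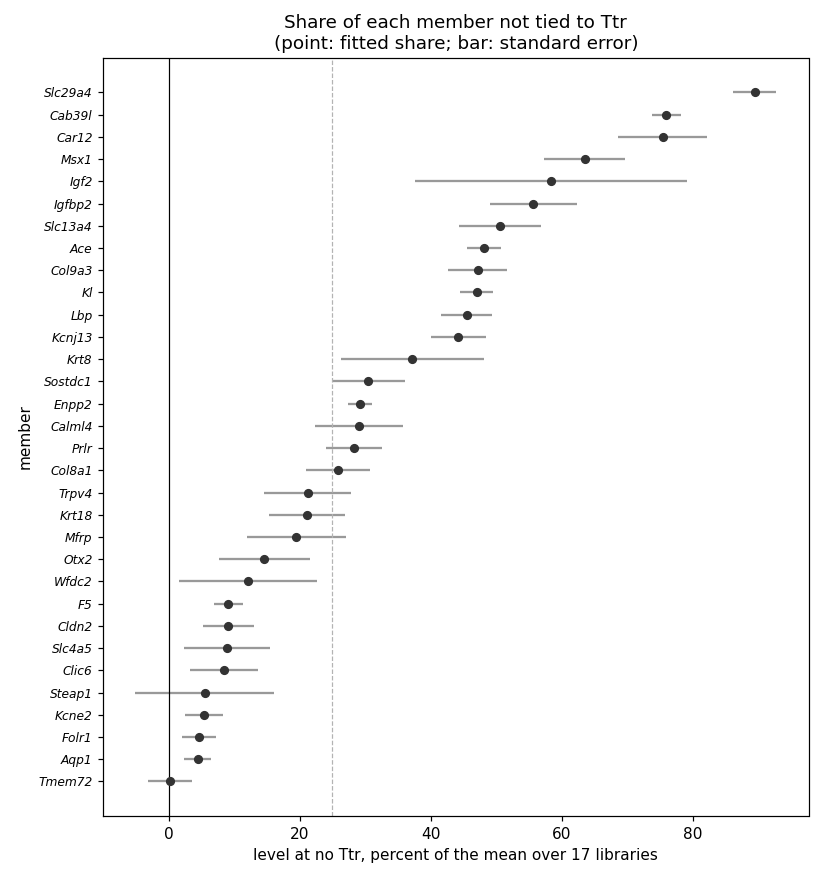
The fitted level at no Ttr of each of 32 genes, as a percent of its mean over 17 libraries, with the SE of the fit as a bar and a dashed line at 25%. Genes run from Tmem72 at 0.2% to Slc29a4 at 89.5%, with 18 of 32 at or above the dashed line.

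Genes with nearly no base were Tmem72 (0.2% ± 3.3), Aqp1 (4.4% ± 2.1), Folr1 (4.6% ± 2.6), Kcne2 (5.4% ± 2.9), Steap1 (5.5% ± 10.6), Clic6 (8.4% ± 5.2), Slc4a5 (8.9% ± 6.5), Cldn2 (9.1% ± 3.9) and F5 (9.1% ± 2.2). Tmem72 ranged from 1.91 to 9.73 normalized counts in the 12 libraries with little Ttr and from 190 to 716 in the 5. Kcne2 ranged from 0.779 to 8.57 in the 12 and reached 258. Clic6 and F5 were better counted, with 10.5 to 43.9 and 6.23 to 40.2 normalized counts in the 12.

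In the middle stood Wfdc2 (12.1% ± 10.6), Otx2 (14.6% ± 7.0), Mfrp (19.5% ± 7.5), Krt18 (21.1% ± 5.8), Trpv4 (21.2% ± 6.6), Col8a1 (25.8% ± 4.9), Prlr (28.3% ± 4.3), Calml4 (29.1% ± 6.7), Enpp2 (29.2% ± 1.9), Sostdc1 (30.5% ± 5.6) and Krt8 (37.2% ± 10.9). Enpp2 combined a large rise with a large base. Its lowest library had 1888 normalized counts, its 12 libraries with little Ttr ended at 2938, and its 5 others ran from 8843 to 28938. Autotaxin is also a known product of oligodendrocytes. The summed oligodendrocyte list of 8 genes stood at 27949 to 39851 normalized counts in every library, and whether those cells supply the base was not tested.

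Genes with a larger base were Kcnj13 (44.2% ± 4.2), Lbp (45.5% ± 3.9), Kl (47.0% ± 2.5), Col9a3 (47.2% ± 4.5), Ace (48.2% ± 2.6), Slc13a4 (50.6% ± 6.3), Igfbp2 (55.7% ± 6.7), Igf2 (58.4% ± 20.8), Msx1 (63.5% ± 6.2), Car12 (75.4% ± 6.8), Cab39l (76.0% ± 2.2) and Slc29a4 (89.5% ± 3.3). Cab39l lay between 361 and 475 in the 12 libraries and rose to 1081. Slc29a4 lay between 91.2 and 151 in the 12 and reached only 210. The neighbours from Kcnj13 to Slc13a4 in this order did not differ beyond their standard errors. Of the exonic bases of Kcnj13, 49.1% lie opposite Gigyf2, and the part of Gigyf2 reads in its base was not tested.

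Among the 12 libraries with little Ttr, the level of Ttr still ran from 63.0 to 774, and the genes differed in their likeness to it. The 17 libraries fall into separate clusters, so Pearson's r of log2(normalized count + 1) was taken within these 12. It was taken for the 29 genes whose mean over all 17 libraries reached 10, of which 10 had a median under 10 in these 12, so that their r rested on few counts. No gene passed adjustment over the 18281 tested (permutation test with 100000 resamples, two-sided). At an unadjusted p under 0.05 there were 7 of the 29, beside 13.5% of the 18281. Clic6 was the gene most like Ttr of all 18281, with r = 0.95 (permutation p = 2e-05, adjusted p = 0.25) and Spearman's rho = 0.94 (permutation p = 4e-05, adjusted p = 0.15), and r = 0.92 without the 2 libraries farthest from the median of Ttr. Within the 6 Control libraries r was 0.89 (exact permutation p = 0.022) and within the 6 CBP-ifKO libraries 0.98 (exact permutation p = 0.0014). The 12 libraries pool genotypes that differ in Ttr, with medians of 459 in Control and 147 in CBP-ifKO, and Clic6 alone of the 29 exceeded 0.7 in both. Car12, at r = 0.78 over the 12, had 0.85 in Control (exact permutation p = 0.035) and 0.06 in CBP-ifKO (exact permutation p = 0.87). Each lane holds 4 of the 12 libraries or fewer, too few for a value within lanes. Otx2, by contrast, fell from r = 0.73 to 0.29 without the 2 farthest libraries, so that its relation rested on them.

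A separate pattern linked Slc13a4 and Igfbp2 in the same 12 libraries, chosen after their values were seen. Slc13a4 was 127 in Control Sal replicate 1, where Ttr was 179, and 150 in Control PTZ0 replicate 3, but 36.5 in CBP-ifKO PTZ0 replicate 1 and 38.9 in CBP-ifKO PTZ45 replicate 1. Igfbp2 was 240 and 211 in the first pair of libraries and 65.7 and 97.8 in the other. Over the 12 libraries r was 0.93 (permutation p = 4e-05, adjusted p = 0.026 over 18281 genes) and rho 0.97 (permutation p = 1e-05, the smallest that 100000 resamples can give, adjusted p = 0.018), with r = 0.90 without the 2 libraries farthest from the median of Slc13a4. Within the 6 Control libraries r was 0.91 (exact permutation p = 0.013). With Ttr, Slc13a4 had r = 0.44 (permutation p = 0.15, adjusted p = 0.52) and rho = 0.48 (permutation p = 0.12, adjusted p = 0.44). Msx1 had r = 0.74 with Slc13a4 (permutation p = 0.0075, adjusted p = 0.28) and rho = 0.74 (permutation p = 0.0075, adjusted p = 0.21), with r = 0.68 without the 2 farthest.

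The genes most like Slc13a4 in these 12 libraries were Slc22a6, an organic anion transporter, with r = 0.98, Aebp1 with 0.97, Ptgds, the prostaglandin D synthase of the meninges, with 0.96, and Ahnak with 0.96. Next came Myh11 and Acta2, contractile genes of smooth muscle, Lama1, Cped1 and Col1a2, a type I collagen chain, each with 0.95. In all 42 of 18281 genes were called. Slc13a4 and Igfbp2 are known from leptomeningeal fibroblasts as well as from choroid plexus. The summed list of 10 meningeal fibroblast genes, which holds Slc22a6 and Col1a2 but none of the 33, was 2059 in Control Sal replicate 1 and 1855 in Control PTZ0 replicate 3, and 662 in CBP-ifKO PTZ0 replicate 1 and 925 in CBP-ifKO PTZ45 replicate 1. It ranged from 622 to 2059 in the 12 libraries and from 1335 to 1940 in the 5, within the range of the 12. The part of meningeal tissue in the levels of Slc13a4 and Igfbp2 was not tested.

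**Figure D4:**
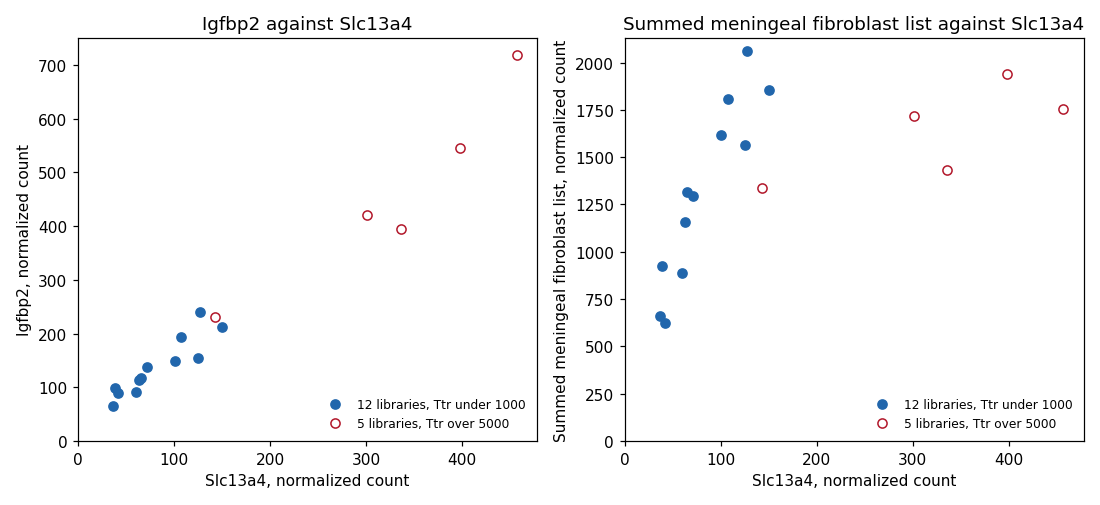
Igfbp2 (left) and the summed meningeal fibroblast list (right) against Slc13a4, in normalized counts, 1 point per library, filled for the 12 libraries with little Ttr and open for the 5 with much. Slc13a4 runs from 36.5 to 150 in the filled points and both other quantities are low where it is low, while the open points extend Slc13a4 to 457 with the meningeal sum no higher than 1940.

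Slopes on Ttr were also taken for further choroid plexus genes and for marker lists of other cell types. All lists were chosen with earlier results of these data known, so the counts called are descriptions and no independent check. Of all 27080 genes tested, 463, or 1.71%, were called higher. Of 22 further genes known from choroid plexus that are not among the 33, 21 were in the table and 19 were called higher with Ttr, with a median slope of 0.31, among them Cdh3, a cadherin, with 0.83 ± 0.10, Abca4 with 0.44 ± 0.02 and Htr2c, the serotonin receptor that neurons also express, with 0.16 ± 0.02. Cldn3 (0.39, adjusted p = 0.305) and Slc26a11 (-0.01, adjusted p = 0.992) were not called. Of the ependymal list 4 of 9 genes were called higher (Foxj1, Tekt1, Cfap126 and Hydin), with a median slope of 0.11 and a sum of 230 to 341 in the 12 libraries and 315 to 472 in the 5. Ependymal cells line the ventricle beside the plexus. Of the meningeal list 2 of 10 were called higher (Lum and Col1a1, median slope 0.10). Of the 8 thalamus and habenula genes 7 were tested and 2 called higher (Tcf7l2 and Lef1, 0.02). The striatum list had 1 of 6 called higher (Ppp1r1b, 0.02) and the endothelial list 1 of 8 (Slco1a4, 0.02). None was called in the oligodendrocyte, astrocyte, cortex, dentate granule cell, CA pyramidal and erythrocyte lists, and in the microglia list C1qa was called lower. No gene of these lists was at 0 in all libraries.

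By the rule of the largest slope among called genes with a mean of at least 10, the 10 leading genes outside the 33 were Tmprss11a (0.83 ± 0.10), Prr32 (0.76 ± 0.10), Wdr72 (0.65 ± 0.07), 1500015O10Rik (0.57 ± 0.02), Wdr86 (0.49 ± 0.04), Tc2n (0.45 ± 0.05), Rbm47 (0.45 ± 0.04), Oca2 (0.45 ± 0.06), Abca4 (0.44 ± 0.02) and Fap (0.41 ± 0.04). Of these, 1500015O10Rik, Wdr86, Rbm47 and Abca4 are in the list of 22, which was chosen with earlier results of these data known. Prr32 ran from 0 to 114 normalized counts over the libraries. The 20 genes called lower with Ttr had slopes from -0.06 to -0.02 only.

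The design asks how kindling, PTZ and loss of CBP change hippocampal transcripts, and in none of its 7 comparisons was any of the 33 genes called (DESeq2 Wald test, adjusted p under 0.05). With PTZ45 against Sal in Control, 204 of 17367 genes (1.17%) were called and 30 of the 33 had a log2 fold change below 0, with a median of -0.86 against 0.00 over all genes whose mean reached 10. Ttr had -2.83 ± 1.85 with no p because of the Cook's distance filter. Control Sal held 1 high library and Control PTZ45 none. Without the 5 high libraries Ttr had +0.95 ± 0.45 (adjusted p = 1) and Tmem72 went from -3.34 to +0.61 ± 1.19. Igfbp2 went from -0.61 to -0.51 ± 0.28, Msx1 from -0.75 to -0.69 ± 0.50 and Krt8 from -1.47 to -1.29 ± 1.83. Further genes lay on each side of 0, such as Trpv4 at -0.74 ± 0.97 and F5 at +1.22 ± 0.61. Igfbp2 had the smallest adjusted p, 0.327, at -0.61 ± 0.23, and at an unadjusted p under 0.05 there were 2 of the 32 with a p in DESeq2, beside 4.03% of all genes with a p, and 5 of 24 in edgeR, beside 13.6%.

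Most other comparisons set groups against each other that each held 1 high library. PTZ45 against Sal in CBP-ifKO had 0 of 33 called beside 0.294% of all genes tested and a median log2 fold change of -0.46, with 40502 normalized counts of Ttr in the high Sal library and 27696 in the high PTZ45 library. PTZ0 against Sal had a median of 0.71 in Control, beside 0.00843% called, and of -0.43 in CBP-ifKO, beside 0.0112% called, while Ttr in the high libraries went from 9791 to 22268 in Control and from 40502 to 30205 in CBP-ifKO. PTZ45 against PTZ0 in CBP-ifKO had a median of -0.06, beside 0.0872% called. The genotype by PTZ45 interaction had 0 of 33 called beside 0.329%. In these 5 comparisons the genes with an unadjusted p under 0.05 numbered 0 in DESeq2, beside 0.336% to 2.46% of all genes with a p, and in edgeR 2 for PTZ0 against Sal in Control, beside 3.58%, and 0 in the others, beside 1.6% to 7.08%. Their adjusted p was left empty by the filters of DESeq2 for 5 to 19 of the 33 genes.

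CBP-ifKO against Control over all treatments had 0 of 33 genes called, beside 19.3% of 18682 genes called. At an unadjusted p under 0.05 there were 0 of the 16 with a p in DESeq2, beside 15.2% of all genes with a p, and 2 of 32 in edgeR, beside 31.7%. The log2 fold change was above 0 in 32 of 33, with a median of 1.09, and below 0 in Car12 alone (-0.26 ± 0.36, adjusted p = 0.681). The high libraries of CBP-ifKO had 40502, 30205 and 27696 counts of Ttr and those of Control 9791 and 22268. Kl had the smallest adjusted p, 0.21, at +0.94 ± 0.52. In this comparison 19 of the 33 had no adjusted p. With log2 Ttr as a term, added after the data were seen, 12 of the 33 were called beside 20.4% of all genes, with Kl at +0.75 ± 0.12 (adjusted p = 4.24e-09) and Car12 at -0.46 ± 0.13 (adjusted p = 0.00429). The other 10 were higher in CBP-ifKO. In the 12 libraries with little Ttr, 3 of them had no adjusted p (Calml4 at 0.02, Mfrp at 0.18 and Steap1 at 0.87) and the other 7 were not called, at 0.01 for Cab39l, -0.06 for Col9a3, -0.09 for Ace, -0.17 for Enpp2, -0.22 for Kcnj13, -0.31 for Col8a1 and -0.32 for Prlr.

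Among the 12 libraries with little Ttr, the genotypes did not overlap for 2 of the 33 genes, Car12 and Kl, beside 4.92% of 18282 genes with a mean of at least 10, a share that 2 of 33 is near. Both are described because their groups did not overlap, so that their tests below are descriptions of genes picked for this difference. Car12 had 313, 385, 434, 371, 439.5 and 351 in the 6 Control libraries and 232, 141, 222, 230, 196 and 187.5 in the 6 CBP-ifKO libraries. Every Control library was higher, also within lane 4, with 439.5 and 351 in Control PTZ45 and 232 and 141 in CBP-ifKO Sal, groups that differ in treatment as well. In a DESeq2 fit of these 12 libraries, which was added after the data were seen, the log2 fold change was -0.95 ± 0.11 (adjusted p = 1.73e-16), beside 11.8% of genes called. A weighted line on Ttr over all 17 libraries with a base per genotype gave Car12 a base of 366 ± 15.8 in Control and 194 ± 12.3 in CBP-ifKO. The fit of all 17 libraries without Ttr did not call Car12.

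Kl took the opposite direction. It had 209, 288, 262, 261, 273 and 274 in the 6 Control libraries and 340, 350, 357, 335, 314 and 335 in the 6 CBP-ifKO libraries. Every CBP-ifKO library was higher, also between those groups of lane 4, with 340 and 350 in CBP-ifKO Sal and 273 and 274 in Control PTZ45. The fit of 12 libraries gave +0.38 ± 0.09 (adjusted p = 0.000434), and the bases were 243 ± 8.80 in Control and 329 ± 10.3 in CBP-ifKO. Klotho is known from hippocampal neurons as well as from choroid plexus. Over all 17 libraries the summed CA pyramidal list was 7734 to 8439 in Control and 5959 to 7242 in CBP-ifKO. The dentate granule cell sum overlapped, with 4985 to 6033 in Control and 5252 to 5766 in CBP-ifKO. The part of these cells in the differences of Car12 and Kl was not tested.

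**Figure D5:**
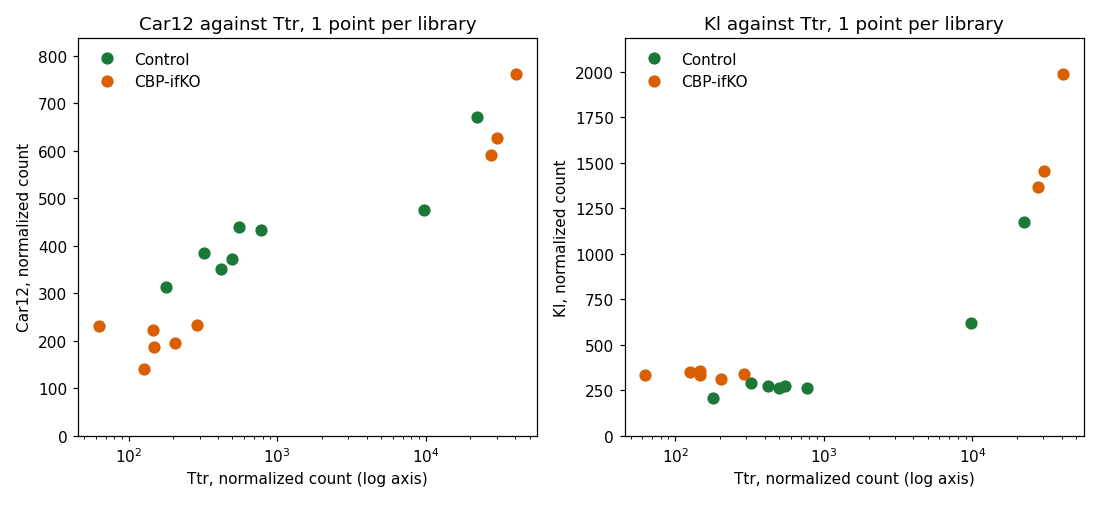
Car12 (left) and Kl (right) in normalized counts against Ttr (log axis), 1 point per library, green for Control and orange for CBP-ifKO. At low Ttr, Car12 is 313 to 439.5 in Control and 141 to 232 in CBP-ifKO, while Kl is 209 to 288 in Control and 314 to 357 in CBP-ifKO, and both rise in the 5 libraries with much Ttr.

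The same fit called 4 more of the 33, all lower in CBP-ifKO, namely Ttr (-1.45 ± 0.43, adjusted p = 0.0112), Clic6 (-0.96 ± 0.28, adjusted p = 0.00993), F5 (-0.98 ± 0.32, adjusted p = 0.0226) and Igfbp2 (-0.78 ± 0.26, adjusted p = 0.0292). The genotypes overlapped in each of them, Ttr running from 179 to 774 in Control and from 63.0 to 290.5 in CBP-ifKO. The 12 libraries were picked by Ttr itself, so that its value and those of genes that follow it, such as Clic6 and F5, are descriptions of the libraries kept. Beside Igfbp2, the meningeal sum was 1296 to 2059 in the 6 Control libraries and 622 to 1563 in the 6 CBP-ifKO libraries, and its part in that difference was not tested.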

How the data were processed

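Hippocampal RNA was sequenced as single-end reads in 17 libraries. Per the labels and methods, the authors trimmed reads with Trim Galore 0.6.4, aligned them with STAR 2.6.1 to GRCm38 and counted reads on Ensembl exons with Rsubread. The deposited values are raw counts, not normalized, and 1 of 18 count columns (named like those of Control PTZ45) fits no sample's labels and stayed out. Symbols, positions and exon overlaps came from GENCODE M21 (99.4% of identifiers matched). The 33 genes and all lists were chosen with earlier results of these data known. Differences and slopes used the two-sided Wald test of DESeq2 1.42.0 in R 4.3.3, checked on simulated data, with default size factors and Benjamini-Hochberg adjustment over all genes, and a call was an adjusted p under 0.05. Replicates are separate mice, per the methods. Genes named besides the 33 were the 10 with the largest slope and Crebbp, and others are said to be chosen after their values were seen or belong to marker lists. Alternatives were edgeR 4.0.16 quasi-likelihood, TMM, a minimum of 10 counts in 2 libraries, the replicate number as a block, other covariates, other pseudocounts and each library left out. Correlations were planned over 17 libraries and were taken within 12, since the 17 fall into separate clusters.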

Additional observations from a re-analysis of the deposited data

How the results depend on the processing

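The 31 calls of genes following Ttr numbered 29 to 31 with each library left out. The 29 came without CBP-ifKO Sal replicate 1, when Slc29a4 (0.06, adjusted p = 0.0864) and Krt8 (0.30, adjusted p = 0.201) were lost. In the 12 libraries with little Ttr the calls fell to 0, beside 455 of 7768 genes called (5.86%), with 4 of the 32 keeping an adjusted p, and the slopes turned to -0.07 for Folr1, -0.62 for Aqp1, -0.09 for Kcnj13, -0.07 for Sostdc1, -0.12 for Enpp2, -0.14 for Cldn2, -0.44 for Igfbp2, -0.58 for Lbp, -0.44 for Slc13a4, -0.08 for Cab39l, -0.35 for Trpv4 and -0.05 for Msx1. The cause was not tested. The 18 genes with a base of at least 25% numbered 17 to 20 with each library left out. The base of Tmem72 was -0.7% of its mean with weights and -0.6% to 1.0% with each library left out, -0.6% being without Control Sal replicate 2. The number of genes with r above 0.7 with Ttr was 29 over all 17 libraries in place of 6, and 4 to 7 with each of the 12 left out. The median within-group SD was 1.47 to 1.78 with each library left out.

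For CBP-ifKO against Control, 0 genes were called in the comparison as reported, 0 to 2 with each library left out (Kl and Steap1, without Control PTZ0 replicate 2), 6 without the 5 libraries high in Ttr, beside 11.8% of all genes called, and 12 with log2 Ttr as a term, beside 20.4%, both added after the data were seen. The direction of Car12 and Kl held in every alternative, at -0.58 to -0.15 and 0.49 to 1.33 with each library left out. For PTZ45 against Sal in Control, 0 to 1 were called with each library left out, the 1 being Igfbp2 (-0.83, adjusted p = 0.0446) without Control Sal replicate 3. The other 5 comparisons had 0 calls in all alternatives run. Same-numbered libraries of different groups did not deviate together (correlations of -0.38 to 0.33, over 0.1 in 10 of 40 pairs), so the numbers do not pair the libraries. With the replicate block, 5 genes were called in CBP-ifKO against Control (Ttr, Folr1, Kcne2, Tmem72 and Steap1), beside 18.8% of 17186 genes, and in the other comparisons the replicate block changed no call of the 33.

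Over all genes, the number called varied with the setting. It was 483 for the slope on Ttr and 243 to 598 in the alternatives (243 without CBP-ifKO Sal replicate 1). For PTZ45 against Sal it was 204 and 73 to 243 in Control (73 with the replicate block), and 58 and 4 to 92 in CBP-ifKO (4 in edgeR). For PTZ0 against Sal it was 3 and 0 to 20 in Control, and 4 and 0 to 6 in CBP-ifKO. It was 23 and 8 to 28 for PTZ45 against PTZ0, 3606 and 1870 to 3811 for genotype, and 69 and 36 to 70 for the interaction.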
